A study of Mus musculus with 13 samples.

Results

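*Nras*, *Hras*, *Sos1*, *Rasgrp2*, *Rasgrp4*, *Nf1*, *Rasa1*, *Rasa3*, and *Dab2ip*, 9 of the 54838 genes in the deposited count table, were described across all 4 genotypes. They were chosen by name, as Ras genes, Ras exchange factors, and Ras GTPase-activating proteins (RasGAPs), and each was found once in the table through its Ensembl identifier. RNA-Seq reads were counted in 13 libraries of Lin- cKit+ bone marrow cells, the fraction that holds hematopoietic stem and progenitor cells (HSPCs), from 3 control, 3 p53mut, 3 NrasG12D, and 4 NPmut mice, with 50000 sorted cells per mouse. The question was how a p53 missense mutation and oncogenic *Nras*, alone and together, went with the RNA levels of the genes that load and unload Ras.

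All mice carried Mx1-Cre, a Cre recombinase under an interferon-responsive promoter that acts in blood cells and in some other tissues. Control mice carried Mx1-Cre alone, p53mut mice also 1 p53 R172H allele, NrasG12D mice also 1 *Nras* G12D allele (written Nras G21D/+ in the genotype field of their labels and NrasG12D in their titles), and NPmut mice both alleles. Mice of the first 3 groups received 3 injections of 100 μg pI-pC, an interferon inducer, at about 6 weeks of age, and were age-matched to the NPmut mice. NPmut mice were labelled as untreated and were moribund with leukemia, and no age was given for them. Genotype, injection, and disease stage therefore cannot be told apart in any comparison with NPmut mice. The counts do not separate mutant from normal alleles.

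Ras proteins are membrane-bound switches that are active when they hold GTP. Exchange factors such as SOS1 and the RasGRP proteins open the nucleotide pocket so that GTP can enter, and RasGAPs such as neurofibromin (*Nf1*) speed the hydrolysis of GTP to GDP. Substitutions at glycine 12 make Ras largely insensitive to RasGAPs, and in blood progenitors oncogenic *Nras* is known for myeloid disease.

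Promoters are shown for *Sos1*, *Rasgrp2*, and *Dab2ip*, whose RNA levels differed between NPmut and control mice. Each is the stretch from 250 bases before to 50 bases after a start site in RefSeq (GRCm38.p6), read 5′ to 3′ on the strand of the gene, with motif matches on either strand in capitals. The motifs searched were the GATA words AGATAA and TGATAA, the PU.1 word GAGGAA, the GC box GGGCGG, the AP-1 words TGACTCA and TGAGTCA, and the CRE word TGACGTCA. The *Sos1* promoter is at chr17:80480404-80480703 (minus strand), the first of 2 *Rasgrp2* promoters at chr19:6399625-6399924 (plus strand), and the first 2 of 4 *Dab2ip* promoters at chr2:35558208-35558507 and chr2:35582590-35582889 (plus strand).
Sos1: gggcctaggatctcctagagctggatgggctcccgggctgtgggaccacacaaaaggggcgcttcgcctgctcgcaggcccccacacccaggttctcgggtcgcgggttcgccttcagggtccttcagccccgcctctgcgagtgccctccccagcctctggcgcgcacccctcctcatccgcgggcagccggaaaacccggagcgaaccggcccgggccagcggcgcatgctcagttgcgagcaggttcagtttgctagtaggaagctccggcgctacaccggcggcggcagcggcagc
Rasgrp2: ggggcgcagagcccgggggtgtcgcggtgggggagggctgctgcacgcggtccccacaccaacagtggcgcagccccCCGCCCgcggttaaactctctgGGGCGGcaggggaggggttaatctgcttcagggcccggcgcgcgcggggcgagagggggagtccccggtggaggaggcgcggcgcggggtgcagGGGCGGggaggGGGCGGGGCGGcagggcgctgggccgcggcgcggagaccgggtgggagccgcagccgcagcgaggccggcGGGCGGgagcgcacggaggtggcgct
Dab2ip first: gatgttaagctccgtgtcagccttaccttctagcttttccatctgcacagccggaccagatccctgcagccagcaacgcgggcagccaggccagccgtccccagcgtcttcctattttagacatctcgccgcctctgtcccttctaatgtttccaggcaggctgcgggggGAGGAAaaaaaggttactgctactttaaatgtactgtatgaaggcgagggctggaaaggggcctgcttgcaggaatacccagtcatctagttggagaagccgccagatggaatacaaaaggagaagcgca
Dab2ip second: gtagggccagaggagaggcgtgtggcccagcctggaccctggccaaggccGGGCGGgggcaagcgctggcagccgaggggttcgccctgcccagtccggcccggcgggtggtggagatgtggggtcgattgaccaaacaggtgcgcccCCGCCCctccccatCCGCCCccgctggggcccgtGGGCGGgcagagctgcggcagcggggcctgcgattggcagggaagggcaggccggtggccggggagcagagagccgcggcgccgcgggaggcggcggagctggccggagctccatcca
The *Sos1* promoter held none of the words, the *Rasgrp2* promoter 6 GC boxes, of which 2 overlap each other, the first *Dab2ip* promoter 1 PU.1 word and no GC box, and the second 4 GC boxes. The first *Dab2ip* promoter also had 54.3% G and C bases against 76.7% in the second. Of 32851 mouse promoters of the same length, 18.6% held a GATA word, 28.3% the PU.1 word, 35.7% the GC box, 5.2% an AP-1 word, and 1.79% the CRE word, so that these matches are common. *Nras* was the only one of the 8 genes with a promoter entry that held a GATA word. The counts are sums over all start sites of a gene.

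Libraries held 12576174 to 29124022 counts, and no 2 libraries were identical. All 7 HSPC markers were detected in every group, with *Kit* at 28.7 RPKM or more in every mouse, although *Gata2* was lower in each NPmut mouse, at 3.59 to 16.1 RPKM, than in control mice, at 23.1 to 33.7 RPKM. NPmut mouse 2 stood apart: it had the largest total, and its 3547 tested protein-coding genes that span over 50 kb had a median log2 CPM 0.38 below the control mean, whereas its 5507 genes under 20 kb had a median 0.23 above. In the other 3 NPmut mice, the medians were −0.091 to 0.0059 for long genes and −0.012 to 0.035 for short genes. Summed levels of 8 megakaryocyte markers were 33.6 to 89.9 CPM in NPmut mice and 137 to 211 CPM in control mice, where 5 of the 6 that could be tested were lower and *Gp1bb* was at 0 in NPmut and at no more than 1 count in control mice, and those of 8 erythroid markers were 77.4 to 418 CPM against 479 to 737 CPM. Summed levels of 8 monocyte and macrophage markers were 1793 to 2851 CPM in NPmut mice against 667 to 754 CPM in control mice, and those of 8 dendritic cell markers 171 to 348 CPM against 106 to 140 CPM. For the dendritic cell markers, NrasG12D mice, at 190 to 273 CPM, were also above control mice and overlapped with NPmut mice. This list includes *Flt3*, which is also among the HSPC markers. Of the 6 dendritic cell markers that could be tested, 4 were higher, among them the MHC class II pathway genes *Cd74* and *H2-Aa*, and *Zbtb46* was lower, at 0.500 to 1.45 RPKM in NPmut against 1.80 to 3.02 RPKM in control mice, and *Bst2* overlapped. Within a bulk library, fewer cells of a type and less RNA per cell cannot be told apart, and the part of these shifts in the results was not tested.

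Levels are given as RPKM (counts scaled by exonic length and library total) where genes are compared with each other and as CPM (counts relative to the TMM-adjusted library total) where mice are compared. *Rasa3* was the highest of the 9 genes in every group, at 28.5 ± 1.22 RPKM (SD, n = 3) in control mice, without overlap with the next gene. *Rasa1* (13.1 ± 1.64 RPKM), *Nras* (11.7 ± 0.682 RPKM), and *Rasgrp2* (11.5 ± 0.637 RPKM) followed and overlapped in control mice. *Sos1* (10.2 ± 0.405 RPKM) and *Hras* (9.10 ± 0.799 RPKM) overlapped with each other, and *Nf1* (5.37 ± 0.294 RPKM) and *Dab2ip* (4.10 ± 0.861 RPKM) were lower and separate. *Rasgrp4* was lowest at 0.245 ± 0.0658 RPKM. The 9 genes together came to 93.8 ± 3.11 RPKM in control mice. In NPmut mice, *Rasgrp2* was second at 14.8 ± 0.590 RPKM (n = 4), above *Rasa1* in every mouse, and *Sos1*, at 6.03 ± 1.32 RPKM, came after *Hras*, with which it overlapped.

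Of the 9 genes, 4 differed between NPmut and control mice at an adjusted p under 0.05 in edgeR's quasi-likelihood test, *Rasgrp2* and *Rasgrp4* higher and *Sos1* and *Dab2ip* lower, where 10.9% of the 17795 genes tested did so. The median log2 fold change of the 9 genes was −0.14, against 0.014 over all genes tested. The called exchange factors thus changed in both directions, and *Dab2ip* was the single RasGAP called among the 9 genes. Outside the 9 genes, the RasGAP genes *Rasa4* and *Rasal1* were higher, as given below. None of the 9 genes passed the test between p53mut and control mice, where 0% of all genes did, or between NrasG12D and control mice, where 0.00562% did, a single gene. At an unadjusted p under 0.05, 0 of 9 differed in p53mut mice (2.33% of all genes) and 1 of 9 (*Rasa3*) in NrasG12D mice (9.23%), and DESeq2 also called 0 of 9 in both.

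**Figure D1:**
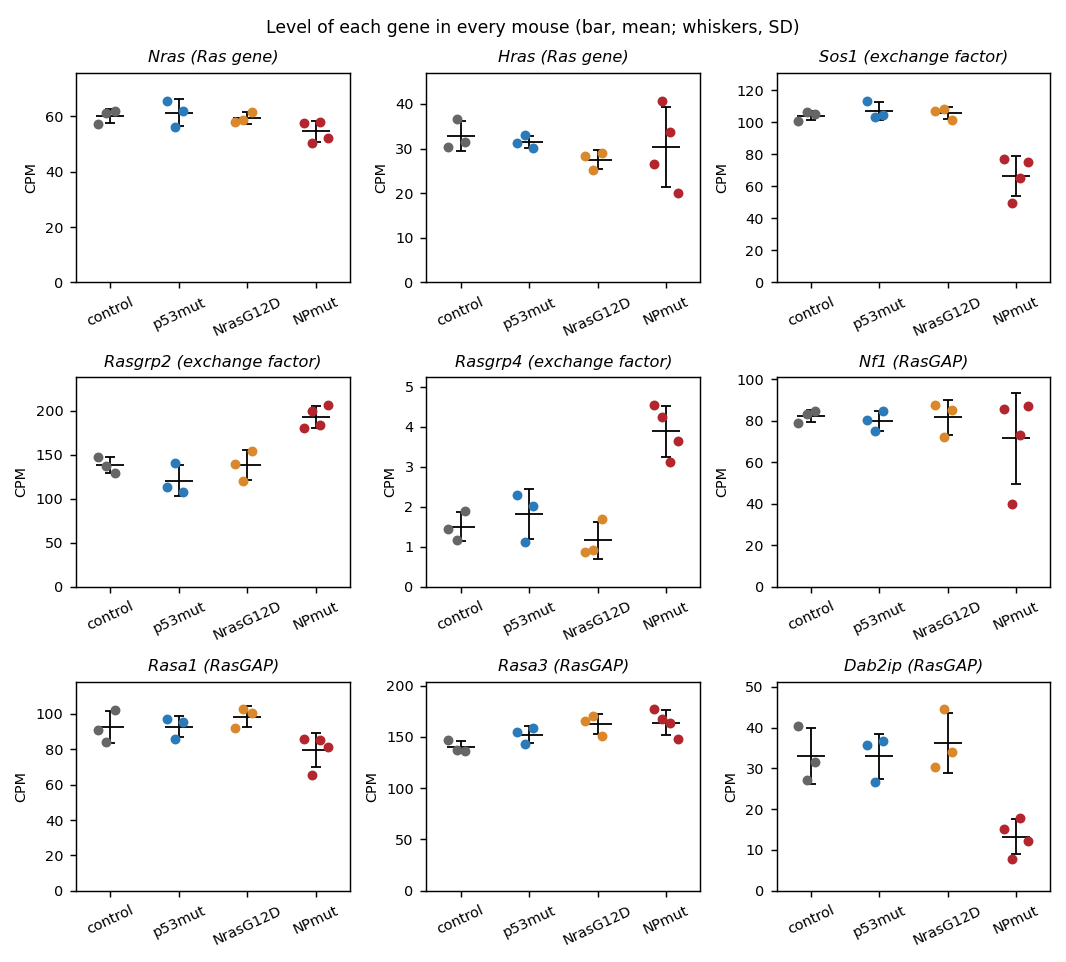
CPM (vertical axis, from 0) of each of the 9 genes in every mouse, by genotype. Points are mice, horizontal bars group means, and whiskers SD. NPmut mice lie apart from all other mice in *Sos1* (49.6 to 76.9 CPM), *Dab2ip* (7.79 to 17.9 CPM), *Rasgrp2* (181 to 207 CPM), and *Rasgrp4* (3.11 to 4.55 CPM), and overlap with the other groups in *Nras* and *Hras*. Taken group by group, NPmut mice did not overlap with control, NrasG12D, and p53mut mice for 22%, 20.5%, and 19.6% of all genes. The share apart from all of these groups at once is not given here.

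*Nras* (ENSMUSG00000027852; GRCm38 chromosome 3, 103058285 to 103067914) encodes the Ras protein that is mutated in the NrasG12D and NPmut mice. Control mice had 57.2, 61.4, and 62.0 CPM, p53mut mice 65.8, 56.3, and 62.1 CPM, NrasG12D mice 57.8, 58.7, and 61.7 CPM, and NPmut mice 57.8, 50.4, 58.0, and 52.2 CPM. The groups overlapped, with the 2 lowest values in NPmut mice 2 and 4. The log2 fold change was −0.14 (SE 0.095, adjusted p = 0.379) in NPmut against control mice, −0.019 (adjusted p = 0.978) in NrasG12D mice, and 0.027 (adjusted p = 1.00) in p53mut mice. Its RNA level, summed over both alleles, thus did not differ detectably in the mice that carried the mutant allele. Trp53, the other mutated gene, was at 109 to 123 CPM in control mice and 78.0 to 106 CPM in NPmut mice (log2 fold change −0.28, SE 0.10, adjusted p = 0.103), and it passed the test against NrasG12D and p53mut mice (−0.41 for both, adjusted p = 0.0241 and 0.0207).

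*Hras* (ENSMUSG00000025499; chromosome 7, 141189105 to 141194005) encodes a second Ras protein. Control mice had 30.2, 36.7, and 31.5 CPM, and NPmut mice 26.5, 40.8, 33.8, and 20.1 CPM. The NPmut mice spread on both sides of the control mice, highest in mouse 2, and the log2 fold change was −0.11 (SE 0.18, adjusted p = 0.751). Its values were 30.2 to 33.0 CPM in p53mut and 25.2 to 29.1 CPM in NrasG12D mice, below all control mice in the latter (log2 fold change −0.25, adjusted p = 0.768; 21.1% of all genes did not overlap between these groups).

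The related genes *Rras*, *Rras2*, and *Mras* were at 1.48, 1.12, and 0.926 RPKM on average in control mice and did not pass the test in NPmut mice, with *Mras* at 0.443 RPKM (log2 fold change −0.93, SE 0.33, adjusted p = 0.0925).

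*Sos1* (ENSMUSG00000024241; chromosome 17, 80393751 to 80480453) encodes the exchange factor that GRB2 brings to activated receptors. Control mice had 101, 106, and 105 CPM, p53mut mice 114, 103, and 104 CPM, NrasG12D mice 107, 108, and 101 CPM, and NPmut mice 76.9, 49.6, 64.9, and 75.2 CPM. All 4 NPmut mice were below the other 9 mice, and mouse 2 was lowest. NPmut mice did not overlap with control, NrasG12D, and p53mut mice for 22%, 20.5%, and 19.6% of all genes. The log2 fold change was −0.65 (SE 0.13, adjusted p = 0.00507) against control mice, 0.639-fold, −0.67 (adjusted p = 0.00525) against NrasG12D mice, and −0.68 (adjusted p = 0.00365) against p53mut mice. These comparisons share the 4 NPmut mice. *Sos1* spans 86.7 kb and is thus among the long genes that were low in NPmut mouse 2; without that mouse the log2 fold change against control mice was −0.53 (adjusted p = 0.00116). Its paralog *Sos2* had 71.1 to 78.4 CPM in control and 61.8 to 90.9 CPM in NPmut mice (log2 fold change 0.082, SE 0.12, adjusted p = 0.709).

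*Rasgrp2* (ENSMUSG00000032946; chromosome 19, 6399340 to 6415216) encodes a calcium-responsive exchange factor that is best known for loading Rap1 in platelets. Control mice had 147, 137, and 129 CPM, p53mut mice 114, 141, and 107 CPM, NrasG12D mice 139, 120, and 154 CPM, and NPmut mice 181, 200, 183, and 207 CPM. All 4 NPmut mice were above the other 9 mice (shares of all genes as for *Sos1*). The log2 fold change was 0.48 (SE 0.12, adjusted p = 0.0165), 1.40-fold, against control mice, 0.48 (adjusted p = 0.0200) against NrasG12D mice, and 0.68 (adjusted p = 0.00265) against p53mut mice. Scaled by library totals alone, without TMM factors, the first of these was 0.36 (adjusted p = 0.0529). Without control mouse 2 or 3 its adjusted p was 0.0574 or 0.0859. Megakaryocyte markers were lower in the NPmut mice, as given above, and their relation to the *Rasgrp2* level was not tested.

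*Rasgrp4* (ENSMUSG00000030589; chromosome 7, 29134851 to 29153961) encodes an exchange factor known from mast cells and other myeloid cells. Control mice had 25, 19, and 37 counts (1.44, 1.17, and 1.89 CPM), and NPmut mice 90, 110, 58, and 43 counts (4.55, 4.24, 3.11, and 3.65 CPM). All NPmut mice were above all control mice, at a low level in each, as these groups did not overlap for 22% of all genes. The log2 fold change was 1.37 (SE 0.35, adjusted p = 0.0202), 2.58-fold, against control mice and 1.75 (SE 0.36, adjusted p = 0.00775) against NrasG12D mice, which had 0.868 to 1.68 CPM. Against p53mut mice, with 1.11 to 2.29 CPM, it was 1.10 (SE 0.34, adjusted p = 0.0562) and not called. Leaving out control mouse 1, control mouse 2, or NPmut mouse 1 raised the adjusted p against control mice to 0.0719, 0.0890, and 0.0543.

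Values that touch the low counts of *Rasgrp4* are given beside it, and their part in its difference was not tested. Background reads, estimated from the reads per kilobase on 1459 olfactory and vomeronasal receptor genes, would give 10.4% of its counts in control and 1.17% in NPmut mice, against at most 0.630% in any group for the other 8 genes. It also shares 978 exonic bases, 15.4% of its exonic length, with *Fam98c* on the other strand, and how strand was treated in counting is not given in the sources used here. *Fam98c* had 324 to 388 counts in control and 443 to 893 counts in NPmut mice (log2 fold change 0.63, adjusted p = 0.0108). Summed levels of 8 mast cell and basophil markers were 92.2 to 128 CPM in control and 71.2 to 102 CPM in NPmut mice, and of the 5 that could be tested 1 was higher and 1 lower. Of these 5, 1 had a log2 fold change above 0 and 4 had one below 0. Within this list *Mcpt8* was at 4.82 to 5.81 RPKM in control and at 6.30 RPKM or more in NPmut mice. *Ms4a2* was at 5.19 to 6.71 RPKM in control and at 0.622 to 3.96 RPKM in NPmut mice, and *Mcpt4* was at no more than 1 count in either group.

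The remaining exchange factors had at most 50 counts in any NPmut mouse and 36 in any control mouse. *Rasgrp1*, *Rasgrp3*, *Rasgrf1*, and *Rasgrf2* had means of 0.0931, 0.0703, 0.114, and 0.118 RPKM in control mice and 0.0807, 0.132, 0.0159, and 0.186 RPKM in NPmut mice, and none passed the test between these groups. *Rasgrf2* was called only against NrasG12D mice, with 17 to 50 counts in NPmut and 3 to 10 counts in NrasG12D mice (log2 fold change 2.15, adjusted p = 0.0262). Over all 8 exchange factor genes, the summed level was 31.4 ± 0.207 RPKM in control and 30.7 ± 3.39 RPKM in NPmut mice. *Rasgrp2* made up 36.7 ± 1.87% of it in control and 48.6 ± 4.92% in NPmut mice, *Sos1* 32.5 ± 1.50% and 19.5 ± 2.38%, and *Rasgrp4* 0.782 ± 0.215% and 1.91 ± 0.354%. The ratio of *Rasgrp2* to *Sos1* RPKM was 1.25, 1.10, and 1.05 in control mice and 2.01, 3.44, 2.41, and 2.35 in NPmut mice, and 0.856 to 1.30 in the single mutants. The summed levels overlapped between NPmut and control mice. The ratios did not, which follows from the choice of genes whose own levels already lay apart in opposite directions. The highest ratio, 3.44, was in NPmut mouse 2, where long genes were low, and *Sos1* spans 86.7 kb and *Rasgrp2* 15.9 kb.

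**Figure D2:**
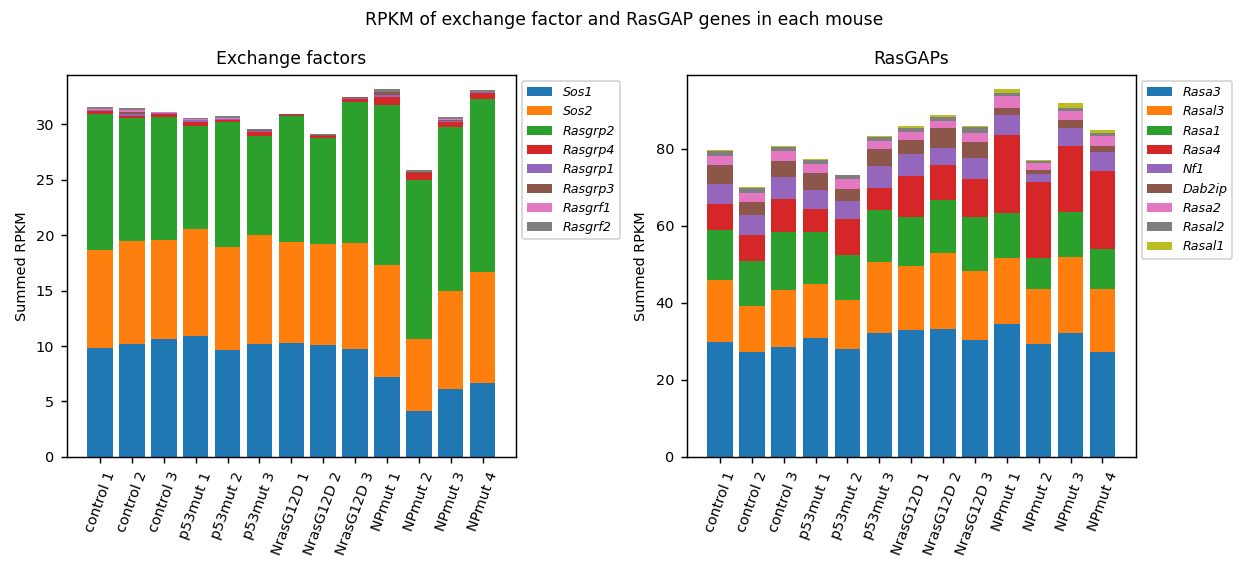
Summed RPKM (vertical axis) of 8 exchange factor genes (left) and 9 RasGAP genes (right) in each of the 13 mice, with 1 color per gene. The *Sos1* share is smaller and the *Rasgrp2* share larger in the 4 NPmut mice, and among RasGAPs the *Rasa4* share is 18.7 to 25.6% in NPmut against 8.49 to 10.8% in control mice.

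*Nf1* (ENSMUSG00000020716; chromosome 11, 79339693 to 79581612) encodes neurofibromin, a RasGAP whose loss causes myeloid disease. Control mice had 78.9, 83.0, and 84.7 CPM, and NPmut mice 85.6, 39.7, 73.0, and 87.1 CPM. NPmut mouse 2 alone was far below the control mice, and 2 of 4 were above them. The log2 fold change was −0.21 (SE 0.20, adjusted p = 0.556) and, without mouse 2, −0.0085. *Nf1* spans 242 kb, the longest of the 9 genes. p53mut mice had 75.0 to 84.4 CPM and NrasG12D mice 72.0 to 87.6 CPM.

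*Rasa1* (ENSMUSG00000021549; chromosome 13, 85214780 to 85289130) encodes p120 RasGAP, which binds activated receptors. Control mice had 91.0, 84.4, and 102 CPM, and NPmut mice 85.8, 65.2, 85.5, and 81.4 CPM. The groups overlapped, and the log2 fold change was −0.22 (SE 0.11, adjusted p = 0.237). Against NrasG12D mice, with 92.0, 103, and 101 CPM, the groups did not overlap, as for 20.5% of all genes, and the log2 fold change was −0.31 (SE 0.11, adjusted p = 0.102).

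*Rasa3* (ENSMUSG00000031453; chromosome 8, 13566948 to 13677603) encodes a RasGAP that also acts on Rap1. Control mice had 147, 137, and 136 CPM, NrasG12D mice 166, 171, and 151 CPM, and NPmut mice 177, 167, 163, and 148 CPM. Each NrasG12D and each NPmut mouse was above the control mice, as the groups did not overlap for 21.1% and 22% of all genes. Neither difference passed the test, at 0.21 on the log2 scale for NrasG12D mice (SE 0.099, adjusted p = 0.536) and 0.23 for NPmut mice (SE 0.093, adjusted p = 0.138). p53mut mice had 143 to 159 CPM, and NPmut and NrasG12D mice overlapped (log2 fold change 0.013, adjusted p = 0.956).

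*Dab2ip* (ENSMUSG00000026883; chromosome 2, 35558266 to 35730994) encodes a RasGAP that also restrains NF-κB signaling. Control mice had 40.5, 27.1, and 31.7 CPM, p53mut mice 35.7, 26.6, and 36.6 CPM, NrasG12D mice 30.4, 44.6, and 34.0 CPM, and NPmut mice 15.3, 7.79, 17.9, and 12.1 CPM. All 4 NPmut mice were below the other 9 (shares of all genes as for *Sos1*), and mouse 2 was lowest. The log2 fold change was −1.32 (SE 0.24, adjusted p = 0.00351), 0.400-fold, against control mice, −1.45 (adjusted p = 0.00271) against NrasG12D mice, and −1.32 (adjusted p = 0.00365) against p53mut mice. *Dab2ip* spans 173 kb; without NPmut mouse 2 the first of these was −1.13 (adjusted p = 0.00225). It was the largest decrease among the 9 genes, and *Rasgrp4* the largest increase.

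Control mice ranged more widely in *Dab2ip* (SD 0.29 on the log2 CPM scale) than in *Sos1* (SD 0.041), against a median SD of 0.20 over all genes tested. In NPmut mice the median SD over all genes was 0.35. *Rasgrp2* was the most even of the 9 genes there (SD 0.094) and *Nf1* and *Dab2ip* the least (SD 0.53 and 0.52).

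**Figure D3:**
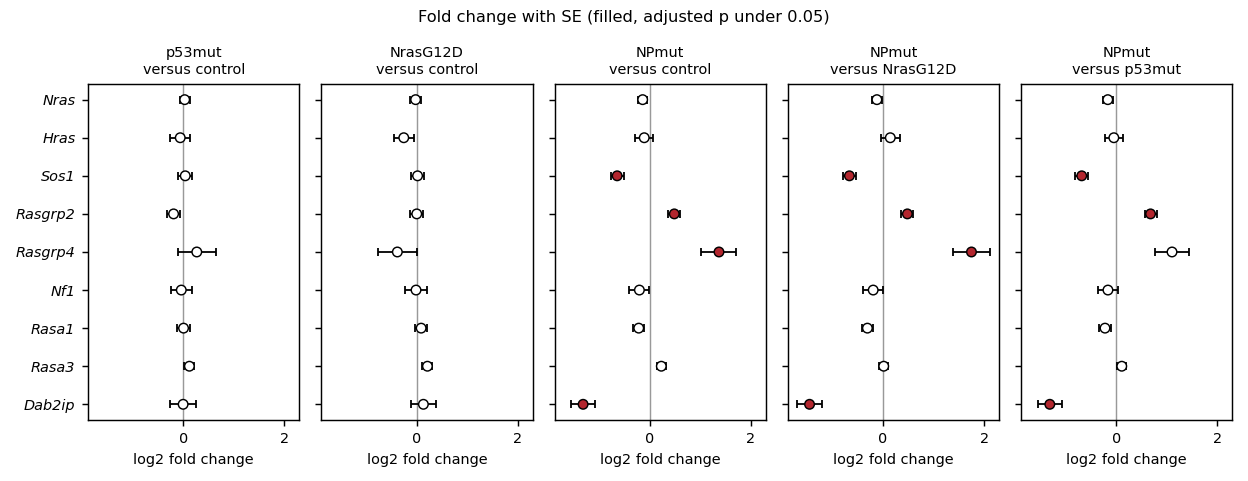
Log2 fold change (horizontal axis) of the 9 genes in 5 comparisons, with SE as bars. Filled points have an adjusted p under 0.05 over all genes tested. The single mutants have no filled point, and *Sos1*, *Rasgrp2*, and *Dab2ip* are filled in all 3 comparisons with NPmut mice, which share those mice, with *Rasgrp4* filled in 2 (1.37 and 1.75).

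NPmut mice were also set against each single mutant, where injection and disease stage differed along with the second mutation. Against NrasG12D mice, 4 of 9 genes were called, *Sos1*, *Rasgrp2*, *Rasgrp4*, and *Dab2ip*, where 8.88% of all genes were. Against p53mut mice, 3 of 9 were called, *Sos1*, *Rasgrp2*, and *Dab2ip*, where 9.95% were. The interaction was NPmut minus p53mut minus NrasG12D plus control on the log2 scale. It asks whether NPmut mice depart from the sum of the single-mutant differences, and it holds the same differences in injection and disease stage. None of the 9 genes passed it, where 1.74% of all genes did, with 4 of 9 at an unadjusted p under 0.05 (16.1% of all genes). Its values were −1.45 for *Dab2ip* (SE 0.35, adjusted p = 0.0519), 0.67 for *Rasgrp2* (SE 0.17, adjusted p = 0.0599), −0.70 for *Sos1* (SE 0.19, adjusted p = 0.0669), and 1.48 for *Rasgrp4* (SE 0.51, adjusted p = 0.161). DESeq2 called *Dab2ip*, *Rasgrp2*, and *Sos1* (adjusted p = 0.00513, 0.0128, and 0.0264), as did the fit without NPmut mouse 2 (adjusted p = 0.0229, 0.0382, and 0.0155).

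In the single mutants, log2 fold changes of the 9 genes against control mice lay between −0.38 (*Rasgrp4*) and 0.21 (*Rasa3*) in NrasG12D mice and between −0.19 (*Rasgrp2*) and 0.27 (*Rasgrp4*) in p53mut mice. For the remaining genes in NrasG12D mice they were −0.011 for *Nf1*, 0.0035 for *Rasgrp2*, 0.020 for *Sos1*, 0.091 for *Rasa1*, and 0.13 for *Dab2ip*. In p53mut mice they were −0.061 for *Hras*, −0.040 for *Nf1*, −0.0038 for *Dab2ip*, 0.0047 for *Rasa1*, 0.038 for *Sos1*, and 0.12 for *Rasa3*.

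Background reads moved with genotype. The receptor genes came to 103 to 191 CPM of the library totals in control, 58.9 to 138 in p53mut, 37.7 to 44.4 in NrasG12D, and 17.5 to 57.3 in NPmut mice, with no overlap between NPmut and control mice. With the log2 share of these reads as a covariate, 1 of 9 genes was called between NPmut and control mice, *Sos1* (log2 fold change −1.0, adjusted p = 0.0231). Of all genes, 4.5% were called with this covariate, against 10.9% without it. *Dab2ip* then had −1.58 (adjusted p = 0.0575), *Rasgrp2* 0.64 (adjusted p = 0.0814), and *Rasgrp4* 0.81 (adjusted p = 0.389). The SE of *Dab2ip* was then 0.44 against 0.24.

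The rest of the pathway was taken from a list of 59 genes for Ras family members, other exchange factors and RasGAPs, adaptors, lipid processing, and effectors, of which 58 were tested. Between NPmut and control mice, 4 of 58 were called, all higher, where 5.38% of all genes were higher and 5.54% lower, and the median log2 fold change was 0.040. *Rasa4*, which encodes the calcium-responsive RasGAP CAPRI, rose from 49.1, 48.9, and 60.8 CPM in control mice to 152, 166, 129, and 161 CPM in NPmut mice. All 4 NPmut mice were above the other 9 (shares of all genes as for *Sos1*), of which NrasG12D mice had 68.1 to 79.1 CPM. The log2 fold change was 1.52 (SE 0.17, adjusted p = 0.000117). Its interaction was also called (1.07, adjusted p = 0.0376), and it was called against NrasG12D mice (1.05, adjusted p = 0.00166) and p53mut mice (1.53, adjusted p = 0.000136).

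*Rasal1*, which encodes a related calcium-responsive RasGAP, rose from 8 to 12 counts in control mice to 36 to 90 counts in NPmut mice (log2 fold change 2.45, SE 0.43, adjusted p = 0.00241). These counts are low, and the part of background reads in them is not given here. Its share of the summed RasGAP RPKM was 0.219 ± 0.0576% in control, 0.164 ± 0.0540% in p53mut, 0.410 ± 0.0381% in NrasG12D, and 0.968 ± 0.397% in NPmut mice. *Rassf5*, which encodes a Ras and Rap effector, had 65.7 to 74.6 CPM in control and 87.2 to 102 CPM in NPmut mice (log2 fold change 0.46, adjusted p = 0.00699). *Pik3cd*, which encodes the phosphoinositide 3-kinase catalytic subunit of leukocytes, had 133 to 143 CPM in control and 151 to 202 CPM in NPmut mice (log2 fold change 0.40, adjusted p = 0.0475). None of the 13 adaptors and regulators or of the 9 lipid-processing genes was called, and 2 of 21 effectors were. In the single mutants 0 of 58 were called. Against NrasG12D mice 2 were higher, *Rasa4* and *Rasgrf2*, and 2 lower, *Spred1* (log2 fold change −0.50, adjusted p = 0.0342), which encodes an inhibitor of Ras signaling that binds neurofibromin, and *Icmt* (−0.52, adjusted p = 0.0109), which encodes the enzyme that methylates the Ras tail. Against p53mut mice, *Rasa4*, *Rasal1*, and *Map2k1* (0.61, adjusted p = 0.0342), which encodes the kinase MEK1, were higher, and *Icmt* (−0.44, adjusted p = 0.0248) and *Mras* (−1.20, adjusted p = 0.0337) lower. *Icmt* was also the second gene past the interaction test (−0.71, adjusted p = 0.0465).

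Over 9 RasGAP genes (the 4 above with *Rasa2*, *Rasa4*, *Rasal1*, *Rasal2*, and *Rasal3*), the summed level was 76.7 ± 5.88 RPKM in control and 87.3 ± 8.11 RPKM in NPmut mice. *Dab2ip* made up 5.32 ± 0.841% of it in control and 1.73 ± 0.526% in NPmut mice, *Rasa4* 9.56 ± 1.14% and 22.3 ± 3.00%, and *Rasa3* 37.2 ± 1.77% and 35.3 ± 2.45%. The ratio of *Rasa4* to *Dab2ip* RPKM was 1.35, 2.02, and 2.14 in control mice and 11.2, 23.8, 8.03, and 14.8 in NPmut mice, against 1.31 to 2.94 in the single mutants. The decrease of *Dab2ip* thus stood beside an increase of another RasGAP gene with a higher level. The separation of this ratio follows from the choice of genes whose own levels already lay apart in opposite directions. Its highest value, 23.8, was in NPmut mouse 2, where long genes such as *Dab2ip* (173 kb) were low. *Rasal3* (14.4 RPKM in control mice), *Rasa2* (2.55 RPKM), and *Rasal2* (1.21 RPKM) did not pass the test.

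**Figure D4:**
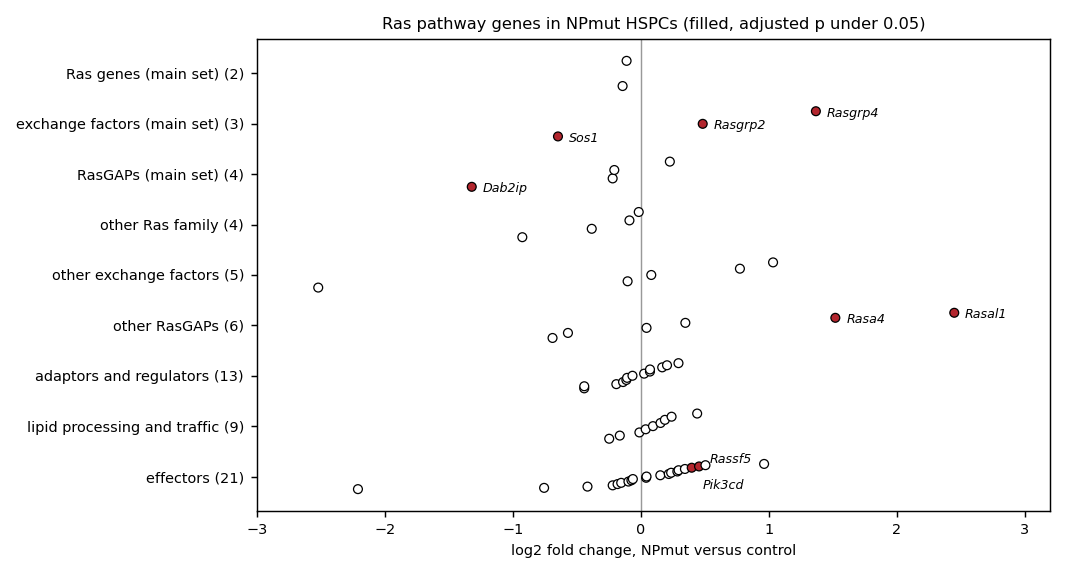
Log2 fold change (horizontal axis) between NPmut and control mice of the 9 genes (top 3 rows) and the 58 other Ras pathway genes tested, by role, with the number of genes in parentheses. Filled points have an adjusted p under 0.05. *Rasa4* (1.52) and *Rasal1* (2.45) are the filled points among the other RasGAPs, and no gene of the other pathway groups is filled on the lower side.

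Genes with the most similar profile to each called gene were found by the root-mean-square (RMS) difference of log2 CPM, centred on the mean of the 13 libraries. For *Sos1* they were *Dcaf1*, *Etnk1*, and *Zfp317* (RMS difference 0.088, 0.088, and 0.096, against a median of 0.51 over genes). For *Rasgrp2* they were *Palm*, *Plppr3*, and *Rab27a* (0.093, 0.11, and 0.11, median 0.44), and for *Dab2ip* *Slc7a8*, *Nwd1*, and *Ppp1r26* (0.17, 0.17, and 0.19, median 0.81). For *Rasgrp4*, *Acta1*, *Ifi30*, and *Relb* were nearest, at a larger distance (0.39, 0.40, and 0.41, median 0.81).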

How the data were processed

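RNA-Seq libraries were made by the authors with a stranded total-RNA kit, and the submitters' processing notes name STAR 2.6.1d, R 3.6.1, DESeq2 1.26.0, and GRCm38.p6. The counting program and its treatment of strand are not given in the sources used here. The deposited table holds raw whole-number counts per gene and mouse, and symbols, exonic lengths, and positions came from GENCODE M21 (54809 of 54838 identifiers).

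Tests on the counts used edgeR 4.0.16 under R 4.3.3, in a robust quasi-likelihood fit of 4 group means to all 13 libraries with TMM factors, over 17795 genes kept by filterByExpr, with Benjamini-Hochberg adjustment over all of them and a threshold of 0.05. RPKM used library totals and log2 CPM a prior count of 2. The test was checked on simulated counts. Genes and lists were chosen with earlier results of these data known. The genes named are the 9 in every comparison, pathway genes called between NPmut and control mice, paralogs, and the 3 nearest profiles of each called gene. *Rasgrf2*, *Spred1*, *Icmt*, *Map2k1*, and *Mras* against single mutants or in the interaction, *Fam98c*, single markers, and the spans of genes were added after their values were seen. Alternatives were DESeq2 1.42.0, other scalings, filters and covariates, and leaving out mice.

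Control and p53mut mice with the same replicate number deviated together (correlations of 0.152 to 0.166 in all 3 pairs). Those with different numbers were at −0.105 to −0.0598. In other groups, mice with the same number did not deviate together in all pairs. Some mice with different numbers correlated more, as control 3 and NPmut 1 (0.239). Control 1 and p53mut 1 were also the only male mice of their groups by Y-linked reads. No source used here ties the number to litters or batches. Replicates are separate mice. Some related genes and sequences are not reported here.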

Additional observations from a re-analysis of the deposited data

How the results depend on the processing

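*Sos1* was called against control mice under all 16 alternatives (log2 fold change −1.0 to −0.53), and *Dab2ip* under 15 of 16 (−1.58 to −1.13). *Rasgrp2* and *Rasgrp4* were each called under 12 of 16. In that comparison 1 of the 9 genes was called with background reads as a covariate, where 4.5% of all genes were. When a mouse was left out, 2 to 4 were called, where 4.41% to 12.3% of all genes were. Without control mouse 2 it was 2 of the 9, and 6.28% of all genes. Against NrasG12D mice 2 to 4 were called when a mouse was left out, 2 without NrasG12D mouse 1, where *Rasgrp2* had an adjusted p of 0.0770 and *Rasgrp4* of 0.0507. *Rasgrp2* also lost this call without NrasG12D mouse 2 (adjusted p = 0.111) and with only the compared groups (adjusted p = 0.0688), and *Rasa1* gained it with the background covariate (adjusted p = 0.0477), where 5 of 9 were called. For the interaction, none in the main analysis, 3 were called by DESeq2, 3 without a filter on low counts, 1 with sex as a term, 1 with the background covariate, and 0 to 3 when a mouse was left out (3 without NPmut mouse 2, 2 without p53mut mouse 2, 1 without NPmut mouse 3). Of the pathway list, 8 genes were called between NPmut and control mice without a filter, 2 with at least 10 counts in every library, and 2 to 10 when a mouse was left out, 10 without NPmut mouse 2 and 2 without control mouse 3. Of all genes, 6.33% were called without a filter, 11.2% with at least 10 counts, 10.8% without NPmut mouse 2, and 4.41% without control mouse 3. For the other comparisons, shares of all genes under these settings are not given here. *Rasgrp4* against p53mut mice was called by DESeq2 (adjusted p = 0.0232) and with at least 10 counts in every library (adjusted p = 0.0432).

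The replicate number was also used as a block in the fit of all libraries, which leaves NPmut mouse 4 with a level of its own and in effect drops it. With this block, 7 pathway genes were called between NPmut and control mice, where 15.5% of all genes were. In the interaction 1 of the 9 genes was called (*Sos1*, adjusted p = 0.0310), and *Rasgrp4* was called against p53mut mice (adjusted p = 0.0463). *Hras* then had 0.030 against control and 0.087 against p53mut mice. The block changed no other call of the 9 genes, also in control and p53mut mice alone.

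Over all genes, NPmut and control mice differed in 1944 genes, of which 49.3% were higher, in 933 with only the compared groups fitted, 801 with the background covariate, 2843 without a filter, and 813 without control mouse 3. With library totals the median gene fell by 0.11 on the log2 scale and 32.3% of calls were higher; with the covariate 61.7% were. With TMM-scaled library sizes the 9 genes summed to 90.6 RPKM in control mice in place of 93.8 RPKM.

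The direction turned only where the difference was not called. Not every such difference was small, as *Hras* in NrasG12D mice went from −0.25 to 0.33 with the background covariate. For *Rasgrp2* in NrasG12D mice the difference was −0.0026 with RLE factors, −0.036 with library totals, −0.021 with at least 10 counts, and −0.0054 with only the compared groups. For *Sos1* there it was −0.023 with library totals, −0.0044 with at least 10 counts, and −0.25 with the covariate. Without a filter, *Nras* and *Nf1* there had 0.011 and 0.019, and *Hras* 0.0074 against p53mut mice. In p53mut mice, *Rasa1* had −0.028 with library totals, −0.0094 with at least 10 counts, −0.00093 with only the compared groups, and −0.055 with the covariate, *Nras* −0.0029 with library totals, and *Dab2ip* 0.013 with sex as a term. *Rasa3* had −0.062 between NPmut and NrasG12D mice with library totals. With the covariate, *Hras* had 0.59 in NPmut, 0.33 in NrasG12D, and 0.13 in p53mut mice against control and 0.45 in NPmut against p53mut mice, *Rasa1* and *Dab2ip* had −0.093 and −0.075 in NrasG12D mice, and *Sos1* −0.049 in p53mut mice.

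When a mouse was left out, differences from control mice lay between −0.050 and 0.0062 (*Nras*), −0.0033 and 0.047 (*Sos1*), −0.087 and 0.088 (*Rasgrp2*), −0.059 and 0.067 (*Nf1*), and −0.044 and 0.33 (*Dab2ip*) in NrasG12D mice, between −0.024 and 0.087 (*Nras*), −0.11 and 0.023 (*Hras*), −0.0052 and 0.066 (*Sos1*), −0.075 and 0.0046 (*Nf1*), −0.061 and 0.088 (*Rasa1*), and −0.13 and 0.18 (*Dab2ip*) in p53mut mice, and between −0.29 and 0.029 (*Hras*) in NPmut mice. Between NPmut and NrasG12D mice they were −0.040 to 0.28 for *Hras* and −0.033 to 0.056 for *Rasa3*, between NPmut and p53mut mice −0.23 to 0.089 for *Hras* and −0.28 to 0.031 for *Nf1*, and in the interaction −0.27 to 0.038 for *Nf1*. The causes were not tested. At 14 to 110 counts, *Rasgrp4* has the least precise fold change of the 9 genes.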
